A study of Mus musculus with 9 samples.

Results

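The genes described here encode the machinery that writes, copies, removes and protects DNA methylation at imprinted loci. The group holds 10 of the 55450 genes counted in each library, chosen by name: the methyltransferases *Dnmt1*, *Dnmt3a* and *Dnmt3b*, the DNMT1 partner *Uhrf1*, the dioxygenases *Tet1*, *Tet2* and *Tet3*, the imprint-protecting factors *Zfp57* and *Trim28*, and *Ctcf*. RNA was sequenced from Rathke’s pouch, the embryonic epithelium that becomes the anterior and intermediate lobes of the pituitary gland, of 7 embryos at e13.5 that carried the *Sox2*Egfp/+ reporter allele, and from the pituitary of 2 adult mice at postnatal week 8 after removal of the posterior lobe. The mice were of a mixed 129Sv/c57BL6J background. Both sexes were used at each stage, but the sex of each animal was not given. The stages were compared to ask whether each gene was “embryo high” or “adult high”. Here these terms stand for an adjusted p below 0.05, whereas the authors also required a fold change above 4.

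DNA methylation at a differentially methylated region marks the parental origin of an imprinted locus, and each cell division would dilute it if it were not copied. UHRF1 binds hemimethylated DNA and brings DNMT1 to the new strand, whereas DNMT3A and DNMT3B place new methyl groups and the TET enzymes oxidise them on the way to removal. ZFP57 binds the methylated allele of imprinting control regions and recruits TRIM28, and CTCF binds the unmethylated allele at loci such as *Igf2*-*H19*.

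Between 16738863 and 28537311 read pairs were counted on genes in the embryo libraries, and 36421545 and 31191117 in the adult libraries. A floor of 3 counts equalled at most 0.220 CPM in an embryo and 0.0843 CPM in an adult, a limit set by counting error alone. CPM are read counts after TMM scaling, which adjusts for library size and composition but not for transcript length. Embryos 1 and 4 stood apart in counted pairs and globin. Their counted pairs were 59.7% and 62.8% of all pairs, whereas the remaining 5 embryos had 73.9% to 80.0%. Globin transcripts made up 14.6% and 16.8% of the counted pairs in these 2 libraries, and 0.772% to 2.06% in the other embryos. All 10 members passed the filter on low counts, with 50 to 15906 counts in a library, and they share exonic bases with other genes only on the opposite strand.

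Of the 10 members, 4 were higher in the embryo at an adjusted p below 0.05 (*Uhrf1*, *Dnmt3b*, *Zfp57* and *Trim28*) and 2 were higher in the adult (*Tet1* and *Tet2*). In each of these 6 genes the groups did not overlap. Among the 19371 genes tested with edgeR’s quasi-likelihood test, 24.0% were higher in the embryo and 27.4% higher in the adult by the same rule. Every embryo lay above both adults for 26.2% of tested genes, and both adults lay above every embryo for 32.9%. With the further demand of a fold change above 4, 3 of the 4 remained on the embryo side, against 11.3% of tested genes, and 2 on the adult side, against 14.6%. Scaling by library size alone left 1 on the embryo side. The p-values measure the spread between these animals, and only 2 were adults. In tissue samples of mixed cells, fewer cells that express a gene and less RNA per cell cannot be told apart.

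Stage differences in these libraries followed transcript length. When the tested genes were divided by transcript length into 10 classes of equal size, the median log2 fold change, embryo over adult, was 1.58 in the shortest class and −1.39 in the longest, with a median of −0.04 over all 19371. In each library the median log2 level of the longest class minus that of the shortest, after the mean of each gene over the 9 libraries was taken off, was −0.80 to 0.33 in the embryos, with embryo 7 the highest, and 1.54 and 1.59 in the adults. Whether this trend belongs to the tissue or to the libraries cannot be told apart. *Tet1*, *Tet2*, *Tet3* and *Dnmt3a* fell in the longest class, and values corrected in every library for length and GC content of the transcript are therefore given beside the uncorrected ones. After this correction 6 members passed as higher in the embryo and 1 as higher in the adult, against 24.9% and 23.8% of all tested genes. With a fold change above 4 as well, the corrected fit held 4 embryo high members and 0 adult high members, against 8.60% and 12.3%. The uncorrected fit held 2 adult high members by that rule, and DESeq2’s Wald test on uncorrected counts also held 2.

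**Figure D1:**
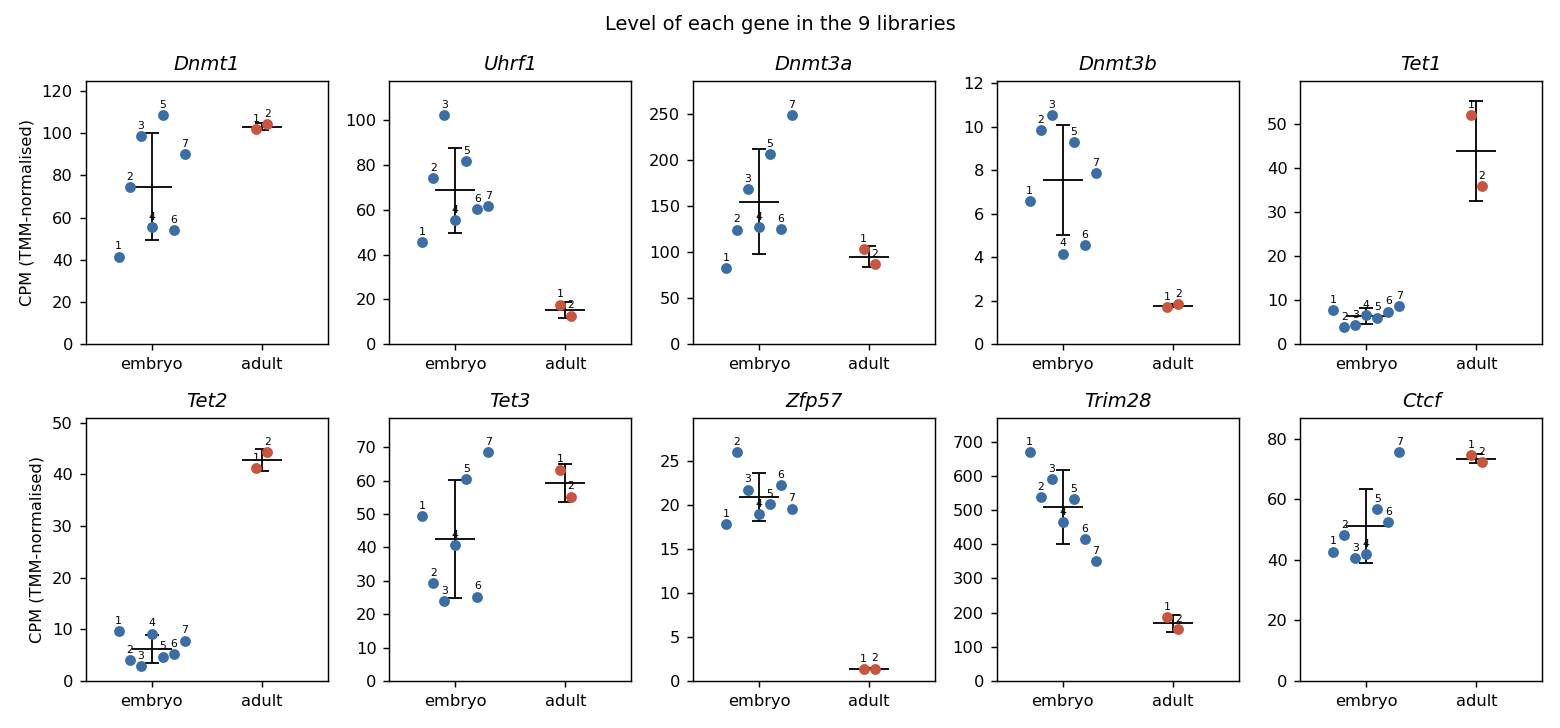
Level of each gene in CPM (vertical axes, linear, from 0) in the 7 embryo (blue) and 2 adult (red) libraries, labelled by replicate number, with the mean (wide bar) and SD (whiskers). *Uhrf1*, *Dnmt3b*, *Zfp57* and *Trim28* lie higher in every embryo than in both adults, *Tet1* and *Tet2* lie lower, and the other genes overlap.

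Maintenance methylation is served by *Dnmt1* and *Uhrf1*, and each gene is shown with the 1 of its promoter windows that carries letters matching the binding motif of E2F factors, the regulators of S phase genes. The windows run from 250 bases before to 50 bases after a start site (RefSeq, GRCm38.p6). The *Dnmt1* window is chr9:20952574-20952873 on the minus strand and the *Uhrf1* window chr17:56304063-56304362 on the plus strand, and capitals mark the matches.
*Dnmt1*: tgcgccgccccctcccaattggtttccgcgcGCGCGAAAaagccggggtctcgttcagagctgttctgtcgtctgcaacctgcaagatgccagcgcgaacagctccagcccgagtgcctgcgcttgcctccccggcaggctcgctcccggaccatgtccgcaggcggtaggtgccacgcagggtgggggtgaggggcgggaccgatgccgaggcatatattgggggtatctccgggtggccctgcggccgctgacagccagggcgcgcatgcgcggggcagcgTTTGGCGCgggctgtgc
*Uhrf1*: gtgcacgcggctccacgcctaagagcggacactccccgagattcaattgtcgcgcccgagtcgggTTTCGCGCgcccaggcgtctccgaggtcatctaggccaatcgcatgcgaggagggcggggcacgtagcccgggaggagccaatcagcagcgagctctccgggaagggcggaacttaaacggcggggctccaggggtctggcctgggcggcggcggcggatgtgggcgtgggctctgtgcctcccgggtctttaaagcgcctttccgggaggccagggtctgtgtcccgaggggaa
The letters searched on both strands were TTTGGCGC, TTTCCCGC, TTTGCCGC and TTTCGCGC, and 2.26% of all 32851 promoter windows, or a window of 2.60% of the 27025 genes, held at least 1 of them. They lay at 2 positions in 1 of the 3 *Dnmt1* windows, at 1 position in 1 of the 2 *Uhrf1* windows, and in no window of the other 8 members. A match describes the sequence and is not a binding site.

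*Uhrf1* (ENSMUSG00000001228.14, chr17:56303321-56323486) ranged from 45.6 to 102 CPM in the embryos with a median of 61.6 CPM, and stood at 17.7 and 12.8 CPM in the adults. The lowest embryo was above both adults. The difference was 2.17 on the log2 scale (SE 0.35, adjusted p = 0.000214, edgeR) and 2.17 after the length and GC correction. *Dnmt1* (ENSMUSG00000004099.16, chr9:20907209-20959888), the methyltransferase that UHRF1 recruits, ranged from 41.5 to 108 CPM in the embryos with a median of 74.4 CPM, and stood at 102 and 104 CPM in the adults. Of the 7 embryos, 6 lay below both adults and embryo 5 lay above them. The groups overlapped, and the log2 fold change of −0.46 did not pass the test (SE 0.33, adjusted p = 0.250, edgeR) and turned to 0.22 (adjusted p = 0.505) after correction. The partners thus differed in their stage values, although the difference between their fold changes was not tested.

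Of the 8 genes listed for maintenance methylation, 4 were embryo high at adjusted p below 0.05 and 1 was adult high, and the list’s median log2 fold change was 0.68. After correction 6 were embryo high, and the uncorrected fit held 3 without adult 1 and 2 without adult 2. *Cdca7*, part of a remodelling complex needed for methylation of heterochromatin, was higher in the embryo by 3.78 on the log2 scale (SE 0.43, adjusted p = 1.24e-05, edgeR). Its embryo values of 61.5 to 124 CPM did not overlap the adult values of 8.49 and 3.94 CPM. *Hells*, which encodes the remodelling ATPase of the same complex, gave 0.13 (adjusted p = 0.848) and 1.63 (adjusted p = 0.00708) after correction. The adult high gene was *Usp7*, a deubiquitinase that binds DNMT1 and UHRF1, at −1.70 (adjusted p = 5.43e-05) and −0.78 after correction.

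Genes of S phase and mitosis moved beside *Uhrf1*. Of 15 listed genes, edgeR placed 12 higher in the embryo and 0 in the adult, where an unadjusted p below 0.05 and DESeq2 also gave 0, whereas library size alone, leaving out embryo 4 and leaving out embryos 1 and 4 each gave 1, *Mki67*. The median log2 fold change was 1.95. The largest differences were those of *Ccne1* (3.50), *Birc5* (3.43), *Ccnb1* (3.22) and *Cdk1* (3.03). *Mcm4* (0.24), *Top2a* (−0.04) and *Mki67* (−0.88) did not pass the uncorrected test. With the correction *Mcm4* (0.72, adjusted p = 0.0242) and *Top2a* (1.17, adjusted p = 0.00543) passed and *Mki67* did not (0.92, adjusted p = 0.219), the latter 2 with a change of sign. *Mki67* stood at 34.3 and 45.5 CPM in embryos 1 and 4, at 9.37 to 22.3 CPM in the other embryos and at 36.6 and 41.0 CPM in the adults, and was −1.49 without embryos 1 and 4. The part of cell division in the *Uhrf1* difference was not tested.

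The de novo methyltransferases differed in level and in how their stage values depended on processing. *Dnmt3b* (ENSMUSG00000027478.15, chr2:153649450-153687730) ranged from 4.16 to 10.5 CPM in the embryos with a median of 7.86 CPM, against 1.72 and 1.83 CPM in the adults. Every embryo lay above both adults. Its log2 fold change was 2.09 (SE 0.49, adjusted p = 0.00269, edgeR) and 2.35 after correction. *Dnmt3a* (ENSMUSG00000020661.15, chr12:3806007-3914443) ranged from 82.7 to 248 CPM in the embryos with a median of 127 CPM, and stood at 103 and 87.0 CPM in the adults. Embryo 1 lay below both adults and the other 6 embryos lay above them. The log2 fold change of *Dnmt3a* was 0.70 and did not pass the test (SE 0.37, adjusted p = 0.123, edgeR). After correction it was 2.05 (SE 0.33, adjusted p = 0.000396), with every embryo above both adults. Without embryo 1 it was 0.86 (adjusted p = 0.0402), and without embryos 1 and 4 it was 0.91 (adjusted p = 0.0328). Across all 21 alternatives the adjusted p for *Dnmt3a* ran from 6.45e-05 to 0.857 (edgeR). The highest came from a fit with a term for replicate number, where the log2 fold change was 0.10. That fit in effect compares embryos 1 and 2 with the 2 adults.

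Per kilobase of exon, *Dnmt3b* made up 9.36% to 20.6% of the *Dnmt3a* and *Dnmt3b* counts in the embryos (median 12.8%), and 5.17% and 6.40% in the adults. The groups did not overlap, and the exact two-sided permutation test, which doubles the smaller tail, gave p = 0.0556 (7 embryos, 2 adults). This is the smallest value that 36 assignments allow with doubling, so the test in this form cannot reach 0.05. Benjamini-Hochberg adjustment over the 4 shares tested left this p at 0.0556. After the length and GC correction the *Dnmt3b* shares overlapped, with 8.68% to 20.4% in the embryos, against 8.69% and 11.1% in the adults (exact permutation p = 0.611).

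Of the 6 genes listed for de novo methylation, 1 passed as higher in the embryo and 4 in the adult, with a median of −1.35. *Dnmt3l*, the inactive cofactor known from germ cells, was counted as adult high at low levels. It had 0 to 0.0812 CPM in the embryos and 0.461 and 0.787 CPM in the adults. Its embryo counts were at most 2, below the floor, and it passed the filter on low counts through the adults. The size of its difference is therefore not given. *Qser1* (−1.87, and 0.08 after correction) and *Nsd1* (−1.35, and 0.67 after correction) changed sign, whereas *Kdm1b* (−1.36) kept its sign but no longer passed (−0.34, adjusted p = 0.315). After correction 3 genes of this list were higher in the embryo and 1 in the adult, with a median of 0.37. In the uncorrected fit, leaving out adult 1 took the adult high genes to 3, leaving out adult 2 took them to 2, and leaving out embryo 1 took the embryo high genes to 2.

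The TET dioxygenases separated into an adult high pair and a member that overlapped. *Tet1* (ENSMUSG00000047146.17, chr10:62804570-62908996) ranged from 3.85 to 8.73 CPM in the embryos with a median of 6.63 CPM, and stood at 51.9 and 35.8 CPM in the adults. The adults were both above every embryo. Its log2 fold change was −2.78 (SE 0.31, adjusted p = 1.00e-05, edgeR). After correction it was −0.44 and did not pass (adjusted p = 0.154), and embryo values of 6.68 to 10.8 CPM then overlapped adult values of 14.9 and 9.38 CPM. The adjusted p for *Tet1* ran from 1.40e-12 (DESeq2) to 0.274 (edgeR) over the 21 alternatives, the highest with both the replicate term and the correction.

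*Tet2* (ENSMUSG00000040943.12, chr3:133463679-133545139) ranged from 2.92 to 9.67 CPM in the embryos with a median of 5.25 CPM, against 41.3 and 44.3 CPM in the adults. Embryos 1 and 4, the libraries rich in globin, were the highest embryos at 9.67 and 9.17 CPM and still lay below the adults. The log2 fold change was −2.79 (SE 0.37, adjusted p = 4.31e-05, edgeR) and −1.07 after correction (adjusted p = 0.0170), where the groups also did not overlap. *Tet3* (ENSMUSG00000034832.15, chr6:83362373-83459084) ranged from 23.8 to 68.6 CPM in the embryos with a median of 40.6 CPM, and stood at 63.3 and 55.2 CPM in the adults. Embryo 7 lay above both adults, 5 embryos lay below both, and the groups overlapped. The log2 fold change of *Tet3* was −0.48 (SE 0.37, adjusted p = 0.298, edgeR) and turned to 0.95 after correction (adjusted p = 0.0273, over 21 alternatives 0.0273 to 0.584). Genes in the same length class had a median of −1.39, with *Tet1* and *Tet2* below it and *Tet3* above it. That class ran from 6388 to 123179 bases with a median of 7922. The longest transcripts of *Tet1*, *Tet2* and *Tet3* have 14369, 9179 and 10904 bases, so the class median is only a rough reference, most of all for *Tet1*.

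**Figure D2:**
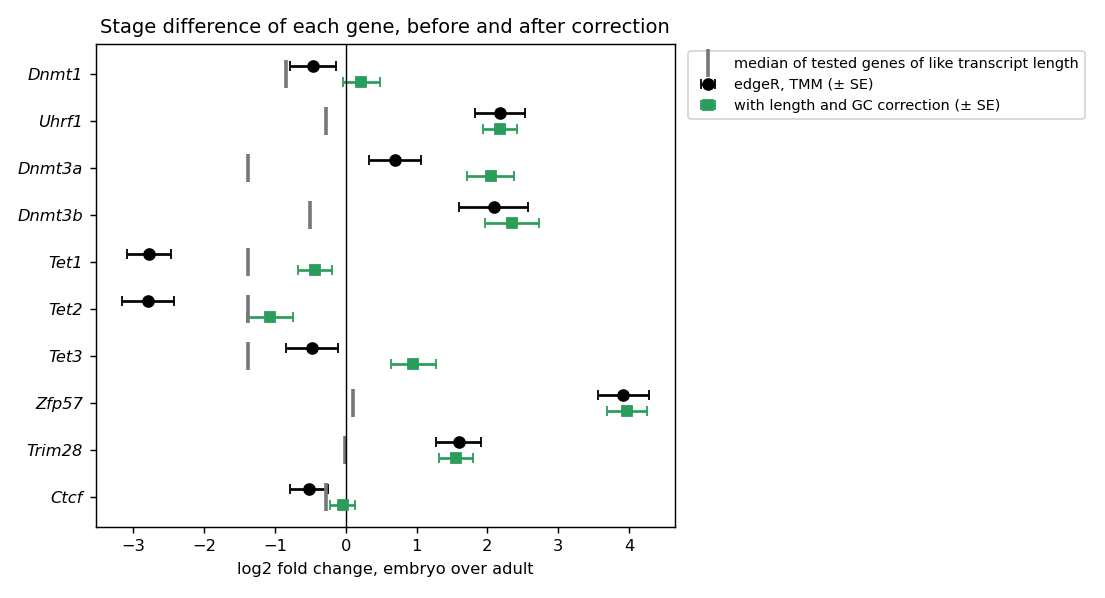
Log2 fold change, embryo over adult (horizontal axis), of each gene from edgeR (circles) and with the length and GC correction (squares), with SE as whiskers, and the median of tested genes in the same length class (grey ticks). The correction moved *Tet1* from −2.78 to −0.44 and *Dnmt3a* from 0.70 to 2.05, and moved *Zfp57* from 3.92 to 3.97.

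The makeup of the TET family, as shares of counts per kilobase within a library, does not depend on scaling between libraries. *Tet3* made up 65.8% to 84.4% in the embryos (median 76.0%), against 39.5% and 40.1% in the adults. *Tet1* held 9.11% to 20.7% (median 12.4%) in embryo libraries, against 35.0% and 28.1%, and *Tet2* made up 6.49% to 16% (median 10.5%) against 25.5% and 31.8%. None of the 3 shares overlapped between stages, and each gave the smallest exact permutation p that the test with the doubled tail allows, 0.0556. The 3 shares add up to the whole in each library, so they are not 3 separate results. After the length and GC correction the *Tet3* share was still above the adults in every embryo, at 68.6% to 81.7% against 47.1% and 48.1% (exact permutation p = 0.0556). The corrected *Tet1* shares overlapped, at 10.8% to 21.0% in the embryos, against 26.5% and 19.7% in the adults (exact permutation p = 0.111).

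**Figure D3:**
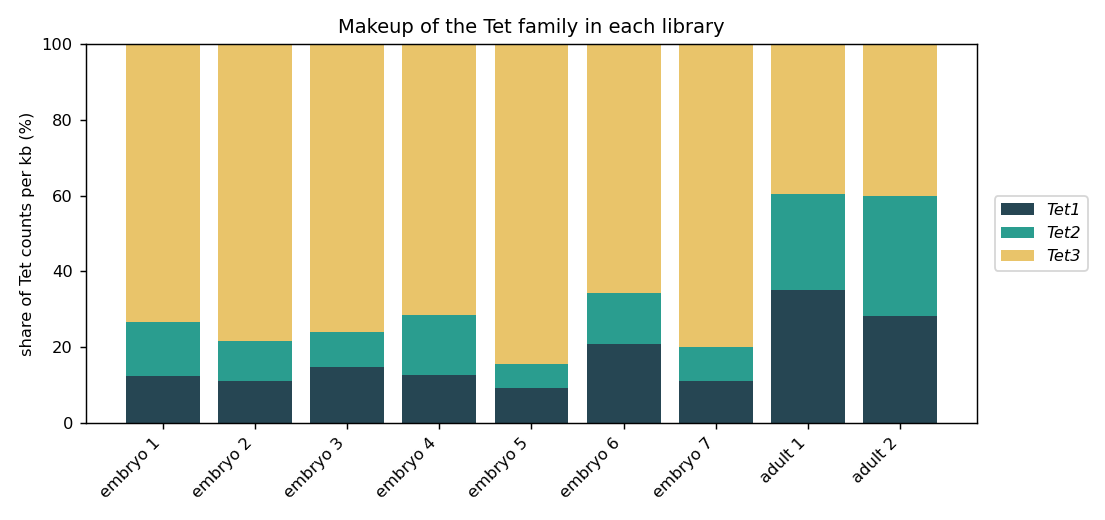
Share of *Tet1*, *Tet2* and *Tet3* in the TET counts per kilobase of exon (vertical axis, percent) in each of the 9 libraries (horizontal axis). *Tet3* holds 65.8% to 84.4% in the embryos, against 39.5% and 40.1% in the adults.

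Among the 12 genes listed for oxidation and removal of 5-methylcytosine, 4 were higher in the embryo and 4 in the adult, with a median of −0.01. Without adult 1, 3 were higher in the embryo, and without adult 2, 2 were. *Apex1*, the abasic site endonuclease, differed by 3.05 (1.93 after correction), *Tdg*, the glycosylase that excises oxidised methylcytosine, by 2.02 (2.23) and *Smug1* by 0.69 (0.96). *Xrcc1* differed by 1.38 and passed after correction as well, whereas *Neil1* (0.21, adjusted p = 0.646) and *Mbd4* (−0.23, adjusted p = 0.649), also of base excision, did not pass in either fit. Beside *Tet1* and *Tet2*, the stress-induced genes *Gadd45a* (−2.04, and −3.08 after correction) and *Gadd45b* (−1.22, and −2.36) were higher in the adult, although *Gadd45b* overlapped, with embryo 2 at 19.2 CPM and an adult at 15.9 CPM. *Gadd45g* (0.63, adjusted p = 0.239) did not pass.

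A promoter window of *Zfp57* and of *Trim28* is shown because both members passed as higher in the embryo and only that of *Trim28* carries the 6 letters known as the ZFP57 motif. The *Zfp57* window is chr17:37000913-37001212 and the *Trim28* window chr7:13023902-13024201, both on the plus strand (RefSeq, GRCm38.p6). Capitals mark the motif.
*Zfp57*: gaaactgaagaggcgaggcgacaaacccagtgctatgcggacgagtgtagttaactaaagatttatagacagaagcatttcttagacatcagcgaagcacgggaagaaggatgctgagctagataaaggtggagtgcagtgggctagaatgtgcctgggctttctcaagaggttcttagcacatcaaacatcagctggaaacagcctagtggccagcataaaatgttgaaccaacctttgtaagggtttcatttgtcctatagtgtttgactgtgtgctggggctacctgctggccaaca
*Trim28*: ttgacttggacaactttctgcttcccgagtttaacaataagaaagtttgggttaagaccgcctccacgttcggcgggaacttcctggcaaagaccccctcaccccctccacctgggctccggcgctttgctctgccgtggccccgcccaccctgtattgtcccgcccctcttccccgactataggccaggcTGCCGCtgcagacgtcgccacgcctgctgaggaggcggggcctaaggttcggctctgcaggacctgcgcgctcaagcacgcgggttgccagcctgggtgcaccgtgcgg
The motif TGCCGC, sought on both strands, lay in 11.6% of all windows, in a window of 13.1% of all genes and in a window of 3 of the 10 members, *Dnmt3a*, *Tet3* and *Trim28*. The *Zfp57* window shown held 6 CpG, its further windows 9 and 4, and the *Trim28* window 23, against a median of 7 over all windows, and the *Tet2* window held 57. No methylation was measured in these samples.

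*Zfp57* (ENSMUSG00000036036.15, chr17:37001163-37010635) ranged from 17.9 to 26.1 CPM in the embryos with a median of 20.1 CPM, and stood at 1.36 and 1.41 CPM in the adults. Every embryo was above both adults, and the adult values were above the floor. The log2 fold change was 3.92, a 15.1-fold difference (SE 0.36, adjusted p = 1.94e-06, edgeR), and 3.97 after correction. *Zfp57* also varied little among embryos, with an SD of 13.0% of the mean, lower than in all but 1.88% of 12744 tested genes (those averaging 100 counts or more). Embryos 1 and 4 were the lowest of them before correction, at 17.9 and 19.0 CPM, and embryo 7 was the lowest after it, at 17.6 CPM.

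*Trim28* (ENSMUSG00000005566.14, chr7:12999114-13031035), the corepressor that ZFP57 recruits, ranged from 351 to 669 CPM in the embryos with a median of 531 CPM, and stood at 186 and 151 CPM in the adults. Embryo 7 was the lowest embryo and lay above both adults. The log2 fold change was 1.59, a 3.02-fold difference (SE 0.32, adjusted p = 0.000937, edgeR), and 1.56 after correction. It thus passed the test but not the fold change of 4.

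Of the 13 tested genes among 14 listed for KRAB zinc finger and TRIM28 imprint maintenance, 4 were higher in the embryo and 5 in the adult, with a median of −0.26. After correction these counts were 7 and 1 with a median of 0.99, and 7 and 4 when embryos 1 and 4 were also left out. *Cbx5* turned from −0.89 (adjusted p = 0.0261) to 0.99 (adjusted p = 0.00615). *Cbx1* (1.47, and 1.53 after correction) and *Ehmt2* (0.92, and 1.23), which encode a reader and a writer of histone H3 lysine methylation, were higher in the embryo. *Zfp445*, a zinc finger gene with a role in imprint maintenance, went the other way from *Zfp57*, with 6.46 to 29.3 CPM in the embryos and 84.1 and 93.0 CPM in the adults. Its log2 fold change was −2.46 (SE 0.39, adjusted p = 0.000178, edgeR) and −1.07 after correction (adjusted p = 0.0275). *Smchd1* (−2.24) and *Arid4a* (−2.09) were also adult high, but did not pass after correction (−0.58 and −0.97). *Arid4a* stood at 15.3 and 15.7 CPM in embryos 1 and 4 and at 1.38 to 4.43 CPM in the other embryos. *Setdb1*, the methyltransferase that TRIM28 brings in, gave 0.31 (adjusted p = 0.444) and 1.18 after correction (adjusted p = 0.00285).

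*Ctcf* (ENSMUSG00000005698.15, chr8:105636568-105682922) ranged from 40.5 to 75.6 CPM in the embryos with a median of 48.1 CPM, and stood at 74.5 and 72.3 CPM in the adults. Embryo 7 lay above both adults and the other 6 embryos lay below them. The log2 fold change of −0.52 did not pass the test (SE 0.27, adjusted p = 0.115, edgeR) and was −0.04 after correction. Without embryo 7 it was −0.64 and passed (adjusted p = 0.0258), within a range of 0.0258 to 0.942 over 21 alternatives. Of the 11 tested genes among 12 listed for CTCF and cohesin, edgeR placed 0 higher in the embryo, as did DESeq2 and an unadjusted p below 0.05, and 8 in the adult, with a median of −1.64. The largest values were those of the cohesin genes *Stag2* (−2.39), *Pds5b* (−2.29), *Pds5a* (−1.99) and *Stag1* (−1.75). After correction 1 gene was higher in each direction, *Mau2* in the embryo and *Stag2* in the adult, and the median was −0.19. With embryos 1 and 4 also left out, 5 genes were adult high after correction. *Nipbl* stood at 61.7 and 61.2 CPM in these 2 embryos, at 7.43 to 15.2 CPM in the other embryos and at 71.9 and 76.1 CPM in the adults. *Ctcfl*, the germ cell paralogue of *Ctcf*, had at most 4 counts in a library and was not tested.

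Of the 7 genes listed under methyl-CpG readers, 5 were adult high before correction, and *Mbd3* (1.75, and 1.09 after correction) was higher in the embryo. Binding of their products to methylated CpG was not measured. *Zbtb38* had the largest value (−3.40, and −1.96 after correction). After correction 3 of the 7 were higher in the adult. Of 8 genes for methyl donor supply, 3 were higher in the embryo, *Shmt1* (2.87), *Ahcy* (2.35) and *Shmt2* (1.45), and *Mtr* was higher in the adult (−2.12, and −0.55 after correction, where it did not pass). After correction 5 of the 8 were higher in the embryo and 0 in the adult. Over the 7 lists other than S phase and mitosis, 55 of 57 genes that are not members were tested. Of these, 13 passed as higher in the embryo and 26 as higher in the adult, where all tested genes gave 24.0% and 27.4%. After correction the counts were 22 and 9, beside 24.9% and 23.8%.

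**Figure D4:**
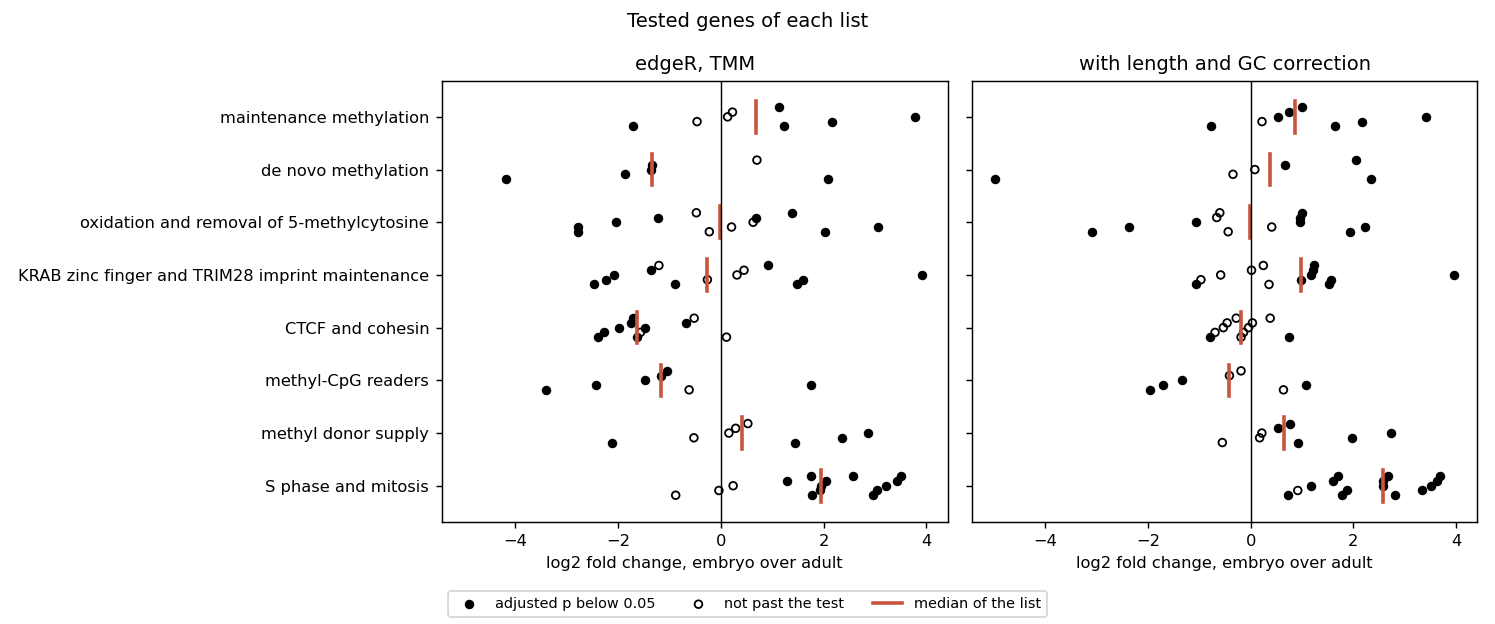
Log2 fold change, embryo over adult (horizontal axes), of every tested gene of the 8 lists, from edgeR (left) and with the length and GC correction (right). Filled points passed an adjusted p of 0.05, open points did not, and bars mark list medians, which moved from −1.64 to −0.19 for CTCF and cohesin and from 1.95 to 2.58 for S phase and mitosis.

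Levels were compared between members as CPM per kilobase of exon, without the length and GC correction. *Trim28* was first at both stages, with a mean of 122 in the embryos (SD 25.8, n = 7), against 44.8 and 36.2 in the adults. In the embryos *Uhrf1* followed at 16.1 (SD 4.45), above *Ctcf* in 6 of 7 libraries. *Ctcf* (10.5), *Dnmt1* (10.1) and *Dnmt3a* (9.28) came next and could not be ordered, since *Ctcf* was above *Dnmt1*, and *Dnmt1* above *Dnmt3a*, in only 4 of 7 libraries. *Zfp57* (5.54, SD 0.719) was below *Dnmt3a* in 7 of 7 libraries, and *Tet1* (0.413) and *Tet2* (0.368) were last, with *Tet1* above *Tet2* in 5 of 7 libraries. In the adults the order by mean was *Trim28*, *Ctcf* (15.1), *Dnmt1* (14.0), *Dnmt3a* (5.71), *Uhrf1* (3.58) and *Tet3* (3.55). *Uhrf1* and *Tet3* changed places between the adults, and *Zfp57* (0.365) and *Dnmt3b* (0.348) were last. When corrected values were divided by exon length, *Uhrf1* lay above *Dnmt3a* and *Tet3* in both adults, so their order there depends on the correction. The order also depends on the length used, here all exons of a gene merged. Merged exons span 16870 bases for *Tet2*, 16642 for *Dnmt3a* and 15457 for *Tet1*. Their longest transcripts have 9179, 9685 and 14369 bases, so the places of *Tet1*, *Tet2* and *Dnmt3a* are not settled.

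Genes whose log2 levels followed each member were sought among the 12744 tested genes that averaged 100 counts or more. The measure was Pearson’s r over the 9 libraries, which form 2 stages, so that r largely describes the stage difference for members that passed the test. For *Dnmt1*, *Dnmt3a*, *Tet3* and *Ctcf*, whose groups overlapped, the nearest gene did not pass the test either. For *Zfp57* they were *Cthrc1*, *H19* and *Mmp11* (r = 0.999, 0.996 and 0.996), and for *Trim28* *Mpdu1*, *Wdr70* and *Dpp3* (r = 0.996, 0.994 and 0.993). For *Uhrf1* they were *Cnot9*, *Incenp* and *Tacc3* (r = 0.994, 0.993 and 0.991), and for *Dnmt1* *Map3k4*, *Acly* and *Pnpla6* (r = 0.985, 0.976 and 0.976). *Tet1* was nearest to *Nucb2*, *Dnajc3* and *Slf2* (r = 0.991, 0.990 and 0.990), and *Tet2* to *Otud4*, *Daam1* and *Pcmtd1* (r = 0.997, 0.997 and 0.996). *Dnmt3b* was nearest to *Trib2* (r = 0.979), *Dnmt3a* to *Ehmt1* (r = 0.968), *Ctcf* to *Syde2* (r = 0.990) and *Tet3* to *Ssx2ip* (r = 0.927).

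The labelled tissues carried their markers. Of 6 Rathke’s pouch genes, 4 were higher in the embryo, and *Pitx1* was the most abundant, whereas *Sox2*, the gene at which the embryos carry the reporter allele, was higher in the adult (−0.70, adjusted p = 0.0282, edgeR). The summed level of the 6 was 503 to 1173 CPM in the embryos (median 961) and 468 and 389 CPM in the adults. Adult endocrine genes summed to 873 to 1921 CPM in the embryos (median 1276) and to 152620 and 160148 CPM in the adults, and 7 of 8 were adult high, with *Gh* the most abundant. Among the embryo high pouch genes, *Hesx1* had at most 20 counts in an adult and entered the test through the embryos. *Prl* and *Lhb* had at most 15 and 6 counts in an embryo and entered it through the adults.

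Markers of other cell types were summed as well. Erythroid genes summed to 178480 and 223719 CPM in embryos 1 and 4, to 6375 to 19830 CPM in the other embryos, and to 763 and 1977 CPM in the adults, and 7 of 8 were embryo high, led by *Hbb-y*. *Hbb-y* and *Hba-x* had at most 9 and 1 counts in an adult and entered the test through the embryos. Mesenchyme genes summed to 579 to 2141 CPM in the embryos (median 1476) and to 547 and 336 CPM in the adults, with 4 of 5 embryo high and *Col3a1* the most abundant. Endothelial genes summed to 110 to 399 CPM (median 225) against 106 and 63.7 CPM, with 3 of 4 embryo high and *Emcn* the most abundant. Neural genes summed to 103 to 424 CPM (median 122) against 98.8 and 65.7 CPM, led by *Tubb3*, which did not pass (adjusted p = 0.614). Of these, *Rax* and *Nkx2-1* were higher in the embryo. *Avp* (0 CPM in every embryo, 1.75 and 3.43 CPM in the adults) and *Oxt* (at most 4 counts in an embryo) passed as higher in the adult. Both entered the test only through the adults. Macrophage genes summed to 101 to 243 CPM (median 114) against 74.0 and 109 CPM and overlapped, with 1 of 4 embryo high and *C1qb* the most abundant. Germ cell genes were near 0, summing to at most 0.353 CPM in an embryo and to 0.897 and 2.05 CPM in the adults. The only one tested, *Ddx4*, passed as higher in the adult. It had at most 4 counts in an embryo and entered the test through the adults, so the size of its difference is not given. The part of these cell types in the stage differences of the members was not tested. Without embryos 1 and 4, the 6 members that passed the test passed it again, and *Dnmt3a* passed as well.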

How the data were processed

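RNA of 7 Rathke’s pouch and 2 adult pituitary samples was compared. The authors made directional libraries, trimmed reads with Trimmomatic 0.39, aligned them to the mouse genome (GRCm38) with STAR 2.7.5b and deposited its raw counts per gene. The sense-strand count was used, and all 55450 identifiers matched the Ensembl 96 annotation (GENCODE M21). The authors used DESeq2. Here, genes averaging 5 counts or more were tested with edgeR 4.0.16 (R 4.3.3; TMM, quasi-likelihood, stage as the only term), with Benjamini-Hochberg adjustment over all tested genes. DESeq2 1.42.0 was an alternative. The correction fitted, per library, splines (4 degrees of freedom each) of log counts on transcript length and GC content, on genes averaging 50 counts or more. Shares were tested by exact permutation in scipy 1.17.1 (Python 3.11.15). The edgeR step was also run on simulated data, and no result given here rests on that run. Further alternatives were other scaling, filters and strand counts, the replicate block, each library left out, and embryos 1 and 4 left out. Corrected shares, the comparison with length classes and the length trend of each library were added after the data were seen.

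The members and lists were chosen with earlier results of these data known. Named genes were the members, up to 4 genes per list and direction with the largest log2 fold changes past the test, list genes whose values show that they did not pass, the markers, and up to 3 genes per member with the highest r. *Nipbl* and *Cbx5* were also named after their values were seen. Among the neural markers, 1 item is not reported here.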

Additional observations from a re-analysis of the deposited data

Results flagged for a closer look

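Among the 7 embryos, the highest and the lowest value were compared with the others for each of the 10 members, the 4 shares and the 8 marker sums. The 10 members and the 4 shares held no value far from the rest by this test. The summed macrophage markers of embryo 2, at 243 CPM, lay far above those of the other embryos, at 101 to 158 CPM. Embryo 2 was also the highest embryo for the summed neural (424 CPM) and endothelial (399 CPM) markers and the lowest for Rathke’s pouch markers (503 CPM), none of which was far from the rest by the same test. The macrophage sum was 1 of 22 groups tested, and about 1 in 20 is met by chance.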

How the results depend on the processing

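Of 210 refits of the 10 members, 195 kept the direction and the side of the threshold, 6 passed in the same direction where the uncorrected fit did not, 4 no longer passed and 5 changed sign. Of those 5, 2 passed in the new direction, both of *Tet3*. The changes of sign came with the length and GC correction. *Dnmt1* was 0.22 with it and 0.36 when embryos 1 and 4 were also left out. *Tet3* was 0.95, and 0.92 without these embryos. The cause was not tested. With the correction, 1 member was higher in the adult and 0 exceeded a fold change of 4 there, also without embryos 1 and 4. Library size alone shifted the median of all genes from −0.04 to −0.26 and left 1 embryo high member past a fold change of 4. At least 10 counts in every library left 7857 genes past the adjusted p and 2634 past both thresholds. The uncorrected fit held 9948 and 5001.

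The embryo minus adult difference in share, in percentage points, was 8.57 for *Dnmt3b* and became 3.10 without division by length, 2.58 with the correction and 1.67 when embryos 1 and 4 were also left out. For *Tet1* it was −18.4, and −13.7 per longest transcript, −8.39 with the correction and −7.32 without these embryos as well. *Tet2* moved from −17.4 to −21.9 per longest transcript, and *Tet3* from 35.8 to 26.2 with the correction and 26.9 without these embryos as well.

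With each library left out in turn, the genes past an adjusted p of 0.05 numbered 5839 to 10669 and those also past a fold change of 4 3683 to 5290. With 1 adult, that adult is assumed to vary like the embryos. With either adult left out, the adult high genes fell from 5 to 3 in the KRAB zinc finger and TRIM28 list, and in the CTCF and cohesin list from 8 to 7 without adult 1 and to 6 without adult 2. Members higher in the embryo numbered 4 to 5 and in the adult 2 to 3, and past a fold change of 4 2 to 3 and 2. The shares differed by 7.53 to 9.41 for *Dnmt3b*, −21.9 to −15.0 for *Tet1*, −20.6 to −14.2 for *Tet2* and 34.4 to 37.5 for *Tet3*.

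Replicates 1 and 2 share a number between stages, but embryos and adults are different animals, so the numbers do not form a pairing. Their deviations from the stage means had r = 0.0372 and −0.0253 over 14079 genes. With 2 adults these deviations mirror each other, so the 2 values of r cannot show that a pairing is absent. The replicate block gives each replicate number its own term, so its stage difference rests on embryos 1 and 2 against the 2 adults. The other embryos have no adult of the same number. With the block, 7717 genes had an adjusted p below 0.05 and 4236 also a fold change above 4. Of the members, 4 were higher in the embryo and 2 in the adult. With the block and the correction, 6058 and 2859 genes passed, 57.9% of the 6058 higher in the embryo, against 46.7% in the uncorrected fit, 45.9% with the block alone and 51.1% with the correction alone. Calls in the embryo went from 4650 to 3506 and in the adult from 5298 to 2552. In that fit 0 members were higher in the adult at either threshold, and *Tet3* was 0.72.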

Other observations

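Ratios within a library, chosen after the values were seen and given without a test, set partner genes side by side per kilobase of exon. *Uhrf1* over *Dnmt1* was 1.19 to 1.94 in the embryos (median 1.73), against 0.301 and 0.213 in the adults, and after the length and GC correction 1.20 to 1.89 against 0.435 and 0.311. *Zfp57* over *Trim28* was 0.0293 to 0.0613 in the embryos (median 0.0448), against 0.00800 and 0.0102 in the adults. *Dnmt1* over *Dnmt3a* was 0.818 to 1.35 in the embryos (median 1.13), against 2.23 and 2.7 in the adults. The size of this ratio depends on the length used, since the merged exons of *Dnmt3a* span 16642 bases and its longest transcript 9685. None of these 3 ratios overlapped between stages.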
